A study of Homo sapiens with 37 samples.

Results

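Human ZNF genes encode proteins built around C2H2 zinc fingers, short modules in which 2 cysteines and 2 histidines hold a zinc ion and, in tandem, can read DNA or RNA. The genes described here are those with a symbol of ZNF, a number and at most 1 final letter chosen by their measured mean level over all libraries, which had to be at least 10 CPM (the UMIs of a gene per 1000000 UMIs of the library). There were 172 of them among 450 ZNF genes and 32055 genes in the whole table. The study measured 3′ RNA by bulk SCRB-seq, which counts molecules by unique molecular identifiers (UMIs), in K562, an erythroleukemia cell line. It compared 26 libraries labelled KO, in which ZBTB7A was targeted with Cas9, with 11 control libraries. According to the methods, cells received a Cas9 plasmid with a guide against ZBTB7A or the empty vector, and single sorted cells were expanded. The labels do not say which library came from which guide or clone, so p-values measure the spread between these libraries, which may be clonal or technical. ZBTB7A is itself a zinc finger protein, with a BTB domain, that mostly acts as a repressor and silences fetal globin genes in erythroid cells.

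About KRAB zinc fingers, the largest class of human ZNF genes, textbook knowledge says that the KRAB domain recruits TRIM28 (KAP1), which brings in the methyltransferase SETDB1 and HP1 proteins and silences chromatin, often over transposable elements. Many of these genes lie in clusters on chromosome 19 and arose by duplication. ZNF genes without KRAB have more varied roles: some activate promoters, some bind RNA or ribosomes, and some carry a SCAN domain, through which such proteins pair with each other.

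Total UMIs ranged from 1070250 to 4270901 in KO and from 563235 to 4710809 in control libraries, and all 172 genes had at least 1 UMI in every library. The smallest total belonged to a control, the library GTTTAT, but the median total was lower in KO (2030965) than in control libraries (3518944). Libraries are named here by barcode or, within their group, by a number in the order of the sample records. Of the 10 listed erythroid and K562 markers, 9 were matched in the table and had UMIs in every library. Of 7 markers of other blood cells, 4 were matched, with a summed level of 0.699 to 29.5 CPM in KO and 14 to 70.7 CPM in control libraries, nearly all of it CD3D, while CD3E, CD79A and CD14 stayed at or near 0. The part of CD3D in any result below was not tested. ZBTB7A RNA had a log2 fold change of 0.12 (SE 0.090, adjusted p = 0.331). A 3′ tag lies outside the coding sequence that the guides target, so this value does not check the edit. The library GGCCAC, labelled KO, is marked throughout, because it lay within or below the control range for several of the genes described here.

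The protein of the main annotated isoform placed 91 of the 172 genes in the KRAB class, 46 of them on chromosome 19 and 45 elsewhere. A further 4 genes had a SCAN domain without KRAB (ZNF24, ZNF397, ZNF232 and ZNF444), and 13 genes had fewer than 3 fingers by the search pattern. The remaining 64 genes had at least 3 fingers and neither domain. The KRAB genes had a median of 11 fingers and a median level of 18.9 CPM, and the 64 other C2H2 genes a median of 7.5 fingers and 31 CPM. KRAB genes made up 52.9% of the expressed ZNF genes and 71.6% of the 278 ZNF genes under 10 CPM. ZNF655, ZNF83 and ZNF678 carry a KRAB domain only in another annotated isoform and were counted without KRAB.

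The sequences before the start sites of 3 of the genes that moved past both thresholds below are shown as examples. They come from RefSeq's promoter table (GRCh38.p14). That table also holds ZNF117, which passed both thresholds and is not shown. The 250 bases end just before the annotated start, and capitals mark GC boxes (GGGCGG on either strand).
ZNF853, chr7:6615360-6615609, plus strand: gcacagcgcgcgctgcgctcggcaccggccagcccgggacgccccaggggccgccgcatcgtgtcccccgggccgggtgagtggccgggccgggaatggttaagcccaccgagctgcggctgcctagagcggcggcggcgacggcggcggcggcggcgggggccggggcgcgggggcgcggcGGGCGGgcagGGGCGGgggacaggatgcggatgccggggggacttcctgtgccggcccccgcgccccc
ZNF711, chrX:85243741-85243990, plus strand: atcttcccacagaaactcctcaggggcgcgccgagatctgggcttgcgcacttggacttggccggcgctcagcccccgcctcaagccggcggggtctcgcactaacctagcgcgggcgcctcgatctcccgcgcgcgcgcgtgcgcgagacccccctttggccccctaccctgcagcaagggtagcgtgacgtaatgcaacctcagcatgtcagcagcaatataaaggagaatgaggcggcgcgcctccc
ZNF83, chr19:52690497-52690746, minus strand: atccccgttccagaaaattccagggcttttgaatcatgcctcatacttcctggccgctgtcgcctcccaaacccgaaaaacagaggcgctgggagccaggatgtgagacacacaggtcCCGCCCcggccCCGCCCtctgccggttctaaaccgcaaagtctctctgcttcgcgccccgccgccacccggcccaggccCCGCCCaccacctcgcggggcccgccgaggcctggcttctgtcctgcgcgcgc
The windows of ZNF853 and ZNF83 hold 2 and 3 GC boxes and that of ZNF711 holds 0. A GC box stood in 64.1% of the 153 expressed ZNF promoters in the table, against 42.3% of all 27305.

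Between KO and control, 31 of the 172 expressed ZNF genes changed at an adjusted p under 0.05, a share of 18%. The same rule took 33.8% of the 10661 genes tested. Of the 31, 16 rose, against a background of 17.7% of tested genes, and 15 fell, against 16.2%. With the additional threshold of an absolute log2 fold change above 0.5, 4 genes rose and 2 fell, where 6.65% and 3.53% of all tested genes did so and 10.2% in both directions together. Of the 172 genes, 7 had a control mean and 2 a KO mean under 10 CPM and were expressed through the other group. ZNF853 and ZNF850 of the 7, both among the 16, changed, and of the 2 none did. When libraries were scaled by their totals alone, 22 genes rose and 12 fell, while over all tested genes 2240 rose and 1322 fell and the median log2 fold change was 0.0282. Without GGCCAC, 4 rose and 3 fell past both thresholds, ZNF544 being the third of those that fell. A set of 6 KO libraries (4, 5, 10, 22, 24 and 25) lay below every control for ZNF254. They stood apart from the other 20 KO libraries for 9 of the genes and below them for 7. Both counts include ZNF254, by which the 6 were chosen. The same count over all tested genes is not given here, so whether 9 is many cannot be said. Without these 6, left out after the data were seen, 17 genes rose, ZNF254 among them by the choice of the 6, and 14 fell, against 30.4% of tested genes called. Of the 31 genes 27 passed there, 4 rose past both thresholds and 0 fell, with ZNF706 at -0.49 and ZNF83 at -0.44. The log2 fold changes of the 172 genes ran from -0.57 to 1.44 with 86 above and 86 below 0, and 142 lay within 0.25 of 0. Their median absolute log2 fold change was 0.112, against 0.152 over all tested genes, and their median standard error 0.092, against 0.089. For none of the 172 were the KO and control libraries fully separated, which held for 0.281% of tested genes.

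**Figure D1:**
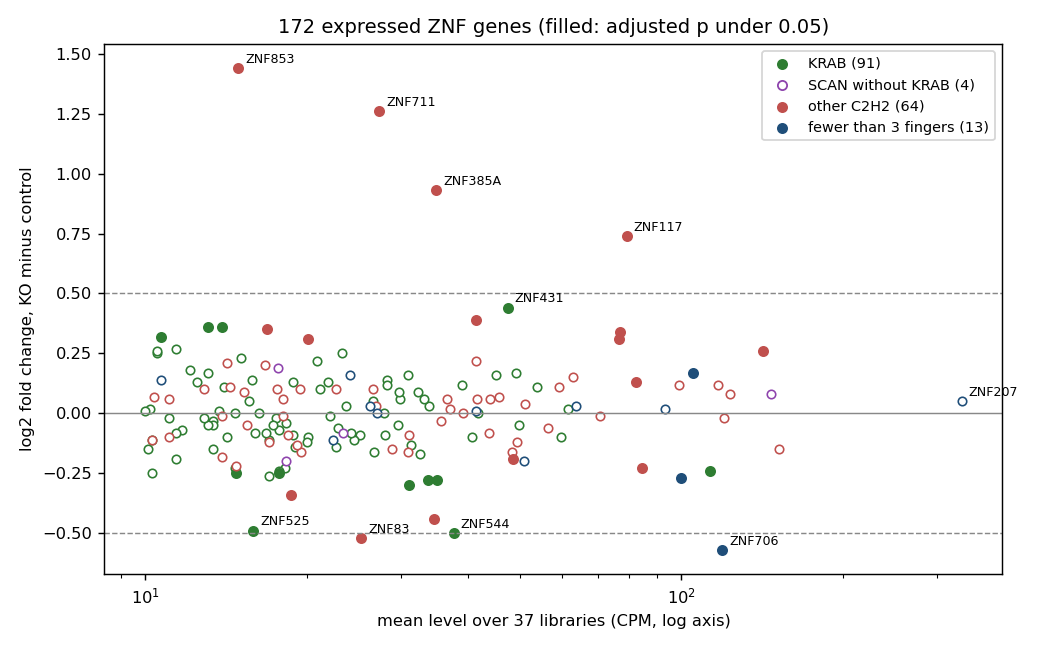
Log2 fold change of KO against control (vertical axis) by mean level in CPM over 37 libraries (horizontal log axis) for the 172 expressed ZNF genes, coloured by domain class, with filled points at an adjusted p under 0.05 and dashed lines at 0.5 and -0.5. The 4 genes above the upper line, ZNF853, ZNF711, ZNF385A and ZNF117, are all of the class without KRAB or SCAN, while the 91 KRAB genes lie between -0.50 and 0.44.

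The share that changed depended on level. Among the 75 ZNF genes with 10 to 20 CPM, 12% had an adjusted p under 0.05, against 33.3% of the 1616 other tested genes of that level. At 20 to 50 CPM the shares were 17.4% of 69 ZNF genes and 33% of 2703 others. At 50 to 400 CPM they were 35.7% of 28 and 37.8% of 3717. Past both thresholds the ZNF shares were 1.33%, 4.35% and 7.14% from the lowest to the highest band, which are only 1, 3 and 2 genes. Those of other genes were 15.7%, 8.4% and 4.52%. The median absolute log2 fold change at 10 to 20 CPM was 0.113 for ZNF genes and 0.200 for the others, at median standard errors of 0.109 and 0.116. These shares are descriptions, and their difference was not tested.

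**Figure D2:**
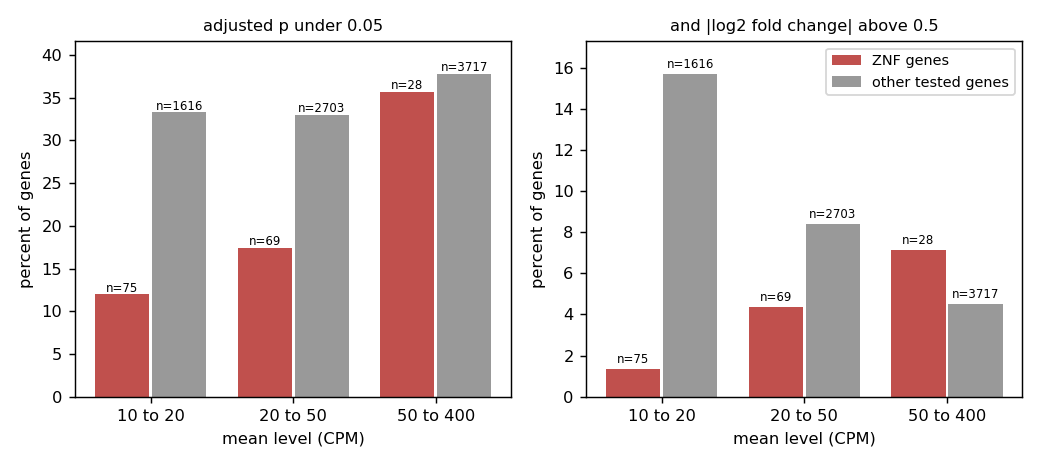
Percent of genes (vertical axes) with an adjusted p under 0.05 (left) and also an absolute log2 fold change above 0.5 (right) in 3 bands of mean level, for ZNF genes and other tested genes, with the number of genes above each bar. On the left the ZNF bars are lower at 10 to 20 CPM (12% against 33.3%) and nearly level at 50 to 400 CPM (35.7% against 37.8%).

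Among the 4 genes that rose past both thresholds, ZNF853, a gene on chromosome 7 with little known function, rose most. Its levels in control libraries were 2.28 to 3.50 log2 CPM with a median of 2.89, and in KO libraries 1.97 to 5.15 with a median of 4.25. In KO, all libraries but 1 exceeded every control, and the exception, GGCCAC, lay below the lowest control with 6 UMIs. The log2 fold change was 1.44 (SE 0.172, adjusted p = 1.64e-08), and 1.49 without GGCCAC. ZNF853 had a mean of 6.72 CPM in control and 18.3 CPM in KO libraries, so it reached 10 CPM through the KO group.

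ZNF711 on the X chromosome, a factor linked to intellectual disability that binds promoters together with the histone demethylase PHF8, ran from 2.83 to 4.49 log2 CPM (median 4.22) in control and from 3.49 to 5.59 (median 5.12) in KO libraries. Here too 25 of 26 KO libraries exceeded every control and GGCCAC was the lowest KO library. The log2 fold change was 1.26 (SE 0.169, adjusted p = 2.51e-07) and 1.30 without GGCCAC. The control libraries were not of 1 kind. The control libraries numbered 3, 4, 6, 8 and 9 lay between 2.83 and 3.26 and the other 6 between 4.22 and 4.49. These 5 controls lay at 4.64 to 4.86 for ZNF385A, above the 3.87 to 4.36 of the other 6, and at 5.33 to 5.74 for ZNF521, above the highest of the other 6 at 4.95. For ZNF275 they lay at 2.87 to 3.38, with the other 6 at 3.29 to 4.43. This division of the controls was noticed in the values, is named in no label and was not used in any comparison.

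ZNF385A, which binds RNA and the p53 protein, had 3.87 to 4.86 log2 CPM (median 4.36) in control and 4.78 to 5.94 (median 5.25) in KO libraries. In KO, 24 libraries exceeded every control. GGCCAC, at 4.78, was the lowest of the KO libraries and within the control range. The gene rose by a log2 fold change of 0.93 (SE 0.125, adjusted p = 2.20e-07), by 0.95 without GGCCAC, and by 1.12 (adjusted p = 7.11e-06) in libraries with AT-rich barcodes alone.

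ZNF117, a primate gene on chromosome 7 whose locus also holds a retroviral envelope gene, had the smallest spread of the 4 in control libraries, with 5.57 to 6.01 log2 CPM (median 5.76). KO libraries ran from 5.81 to 6.95 with a median of 6.55. Again 25 of 26 lay above every control and GGCCAC within them. The log2 fold change was 0.74 (SE 0.083, adjusted p = 4.81e-09), or 0.76 without GGCCAC, at 79 CPM, the highest mean level of the 4 rising genes.

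Of the genes that fell, ZNF706, a gene on chromosome 8 for a small protein with 1 finger and 76 residues, fell most. Its control libraries ran from 7.12 to 7.51 log2 CPM (median 7.21) and its KO libraries from 6.15 to 7.28 (median 6.65), with 23 of 26 KO libraries below the lowest control. The log2 fold change was -0.57 (SE 0.099, adjusted p = 2.19e-05), and GGCCAC, at 6.86, lay with the other KO libraries. ZNF83, a chromosome 19 gene with 14 fingers, had 4.37 to 5.29 log2 CPM (median 5.02) in control and 4.03 to 5.21 (median 4.59) in KO libraries. The groups overlapped widely, with 8 KO libraries below the lowest control, the shallow GTTTAT. ZNF83 fell by 0.52 on the log2 scale (SE 0.098, adjusted p = 7.14e-05). It stayed past 0.5 or not depending on which single library was left out, with log2 fold changes between -0.55 and -0.48.

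**Figure D3:**
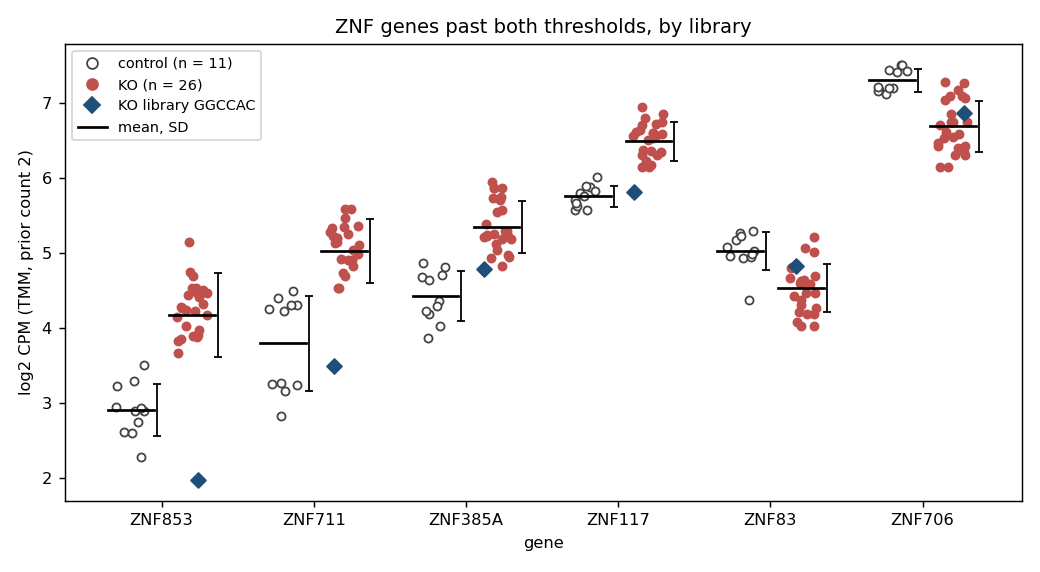
Level in log2 CPM (vertical axis) of the 6 ZNF genes past both thresholds in each of 11 control libraries (open circles) and 26 KO libraries (filled), with group means and SDs as black lines and the KO library GGCCAC as a diamond. For ZNF853, ZNF711, ZNF385A and ZNF117 the KO libraries other than GGCCAC lie above all or nearly all controls, and the controls of ZNF711 form a lower set of 5 and an upper set of 6.

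Of the 91 genes with a KRAB domain, 4 rose and 8 fell at an adjusted p under 0.05, and 0 passed both thresholds. Together 13.2% of KRAB genes passed, against 33.8% of all tested genes, of which 10.2% passed both thresholds. The median log2 fold change of KRAB genes was -0.025, with 52 of 91 below 0. It was 0.035 for the 81 genes without KRAB and -0.005 over all tested genes. Among those 81, 12 rose and 7 fell, together 23.5%. The 8 falling KRAB genes were ZNF544, ZNF525, ZNF480, ZNF282, ZNF600, ZNF202, ZNF320 and ZNF74.

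ZNF544, a KRAB gene at the chromosome 19 end with 12 fingers, separated the groups best of the genes that fell. Control libraries had 5.35 to 6.07 log2 CPM (median 5.51) and KO libraries 4.48 to 5.47 (median 5.16). Of the 26 KO libraries 25 lay below the lowest control, the exception being GGCCAC at 5.47. Its log2 fold change of -0.496 (SE 0.072, adjusted p = 8.81e-07) fell just short of the fold threshold, and without GGCCAC it was -0.51. ZNF525 was similar in size, with a log2 fold change of -0.493 (SE 0.10, adjusted p = 1.92e-04), and 14 KO libraries lay below all controls. The last 300 bases of ZNF525's main transcript match other annotated transcripts and overlap a gene on the same strand, so its counts are uncertain.

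Smaller falls were found for the KRAB genes ZNF480 (log2 fold change -0.30, SE 0.079), ZNF282 (-0.28, SE 0.084), a protein known to bind a retroviral long terminal repeat, and ZNF600 (-0.28, SE 0.077). Their KO libraries below every control numbered 14, 6 and 6. The 3′ end of ZNF480 overlaps an antisense gene. ZNF74 fell by 0.24 (SE 0.068, adjusted p = 0.00544) at 113 CPM, the highest level among KRAB genes, and by 0.16 (adjusted p = 0.0292) without the 6 KO libraries, all of which lay below the other 20. ZNF202 and ZNF320 both fell by 0.25, with adjusted p of 0.0381 and 0.0364. The calls of ZNF202 and ZNF320, and below those of ZNF519, ZNF850, ZNF521, ZNF644 and ZNF622, did not hold with every single library left out. Without the 6 KO libraries those of ZNF320, ZNF519, ZNF850 and ZNF622 ended (adjusted p = 0.12, 0.16, 0.083 and 0.0871).

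The 4 rising KRAB genes were ZNF431, ZNF736, ZNF519 and ZNF850. For ZNF431 control libraries ran from 4.89 to 5.54 log2 CPM (median 5.28) and KO libraries from 5.30 to 6.19 (median 5.67), and 19 KO libraries lay above every control. Its log2 fold change was 0.44 (SE 0.075, adjusted p = 1.57e-05), and GGCCAC was once more the lowest KO library. ZNF736, ZNF519 and ZNF850 rose by 0.36, 0.36 and 0.32 from control means of 10.5, 11.1 and 9 CPM. The shallow control GTTTAT held 3 UMIs of ZNF736 and 4 of ZNF519. ZNF850 reached 10 CPM through the KO group, at a mean of 11.4 CPM. In AT-rich libraries alone ZNF736 and ZNF850 did not pass (adjusted p = 0.0625 and 0.154).

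The RNAs of the proteins through which KRAB repression works showed small differences in both directions. Of the 16 listed partners, 5 rose and 2 fell at an adjusted p under 0.05, together 7 of 16 where 33.8% of all tested genes passed, and 0 passed both thresholds. TRIM28, the corepressor that binds KRAB, fell by 0.21 (SE 0.047, adjusted p = 6.17e-04), with 7.77 to 7.98 log2 CPM in control and 7.39 to 7.95 in KO libraries. MORC2, an ATPase of the HUSH silencing pathway, fell by 0.22 (SE 0.073). The HP1 genes CBX1 and CBX5 rose by 0.28 (SE 0.060) and 0.19 (SE 0.045), and MPHOSPH8 of the HUSH complex rose by 0.20 (SE 0.069). CHD3 and CHD4, ATPases of the NuRD complex, rose by 0.29 (SE 0.062) and 0.16 (SE 0.052). SETDB1 had a log2 fold change of -0.05 (SE 0.070, adjusted p = 0.656) and the HP1 gene CBX3 also -0.05 (SE 0.038, adjusted p = 0.35).

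By position, the 62 ZNF genes on chromosome 19 had a median log2 fold change of -0.076, with 41 below 0, 2 risen and 7 fallen. Together 14.5% of them passed, against 33.8% of all tested genes. The 110 genes elsewhere had a median of 0.034, with 14 risen and 8 fallen, together 20%. The 599 tested genes on chromosome 19 that are no ZNF gene had a median of -0.050, with 342 below 0. Of these 599, 83 rose and 125 fell, together 34.7%. KRAB genes had a median of -0.076 on chromosome 19 and 0.001 elsewhere, and genes without KRAB -0.073 and 0.055.

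The 10 expressed ZNF genes from ZNF614 to ZNF761 on chromosome 19 (GRCh38, chr19:52012765-53461862) all had log2 fold changes below 0, from -0.52 to -0.02. Of these, ZNF480, ZNF83, ZNF600, ZNF320 and ZNF525 fell at an adjusted p under 0.05, and ZNF614, ZNF766, ZNF28, ZNF765 and ZNF761 did not pass. Of all tested genes 16.2% fell and 17.7% rose at that adjusted p. This run on chromosome 19 was picked out after its values were seen and gets no test. In the run of 7 genes from ZNF736 to ZNF92 on chromosome 7 (chr7:64307459-65401136), also picked afterwards, ZNF736 and ZNF117 rose and the others, ZNF680, ZNF107, ZNF138, ZNF273 and ZNF92, had log2 fold changes from -0.02 to 0.13 and did not pass.

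**Figure D4:**
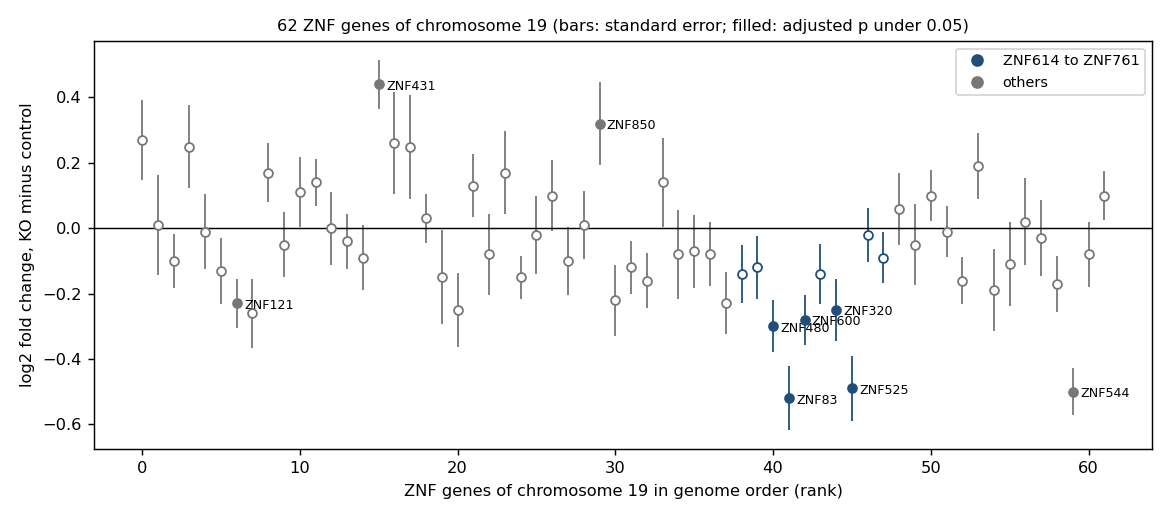
Log2 fold change of KO against control with its standard error (vertical axis) for the 62 expressed ZNF genes of chromosome 19 in genome order (horizontal axis, rank), filled at an adjusted p under 0.05 and coloured for the 10 genes from ZNF614 to ZNF761. All 10 lie below 0, from -0.52 for ZNF83 to -0.02 for ZNF765, and ZNF544, further along, stands at -0.50.

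Among the genes without KRAB that act on transcription, ZNF521, a large factor of early hematopoietic and neural cells with 27 fingers, had a log2 fold change of 0.39 (SE 0.146, adjusted p = 0.034). Its groups overlapped widely, at up to 5.74 log2 CPM in control and 4.71 to 6.20 in KO libraries. Its call ended without any 1 of controls 1, 2, 5, 7 (GTTTAT), 10 or 11, with adjusted p of 0.0502 to 0.0745. These are the 6 controls at 4.60 to 4.95 for ZNF521. The other 5 controls lay at 5.33 to 5.74, within the KO range. In AT-rich libraries alone the adjusted p of ZNF521 was 0.0748. ZNF592, which works with ZMYND8 in a chromatin complex, rose by 0.31 (SE 0.087), with 19 KO libraries above every control. The paralogs ZNF518A and ZNF518B moved in opposite directions. ZNF518A rose by 0.31 (SE 0.051, adjusted p = 1.04e-05), from 5.68 to 6.20 log2 CPM in control to 6.13 to 6.66 in KO libraries, 23 of which lay above every control. ZNF518B fell by 0.44 (SE 0.113, adjusted p = 0.00242), from 5.19 to 5.83 in control to 4.09 to 5.63 in KO libraries, 20 of which lay below every control. KO libraries 4, 5, 10, 22, 24 and 25 formed a lower set for ZNF518B, at 4.09 to 4.42, with the other 20 at 4.78 to 5.63. Without them it fell by 0.30 (SE 0.078, adjusted p = 0.00356). ZNF644, a partner of the histone methyltransferases EHMT1 and EHMT2, fell by 0.19 (SE 0.062, adjusted p = 0.0162), and did not pass in AT-rich libraries alone (adjusted p = 0.0648).

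ZNF771 and ZNF672 rose by 0.35 (SE 0.108) and 0.34 (SE 0.099), and ZNF239, which binds DNA and RNA, fell by 0.34 (SE 0.103), with adjusted p of 0.0108, 0.00696 and 0.00921. ZNF771 did not pass in AT-rich libraries alone, at 0.26 on the log2 scale (adjusted p = 0.101). ZNF121 fell by 0.23 (SE 0.074), with 1 KO library below every control. Its lowest control was the shallow GTTTAT, at 5.87 with 32 UMIs, and the next control stood at 6.39. Its 6 lowest KO libraries were the 6 named above, at 5.77 to 6.17, with the other 20 at 6.31 to 6.66, and without them it fell by 0.14 (adjusted p = 0.0479). The listed transcription factors ZNF143, its paralog ZNF76, ZNF148, ZNF281, ZNF217, ZNF652, ZNF689, ZNF746 and ZNF827 did not pass with all libraries. Of these, ZNF689 and ZNF746 are KRAB genes. Log2 fold changes ran from -0.15 for ZNF143, which binds many promoters and small nuclear RNA genes (adjusted p = 0.0771), to 0.22 for ZNF76 (adjusted p = 0.0985). ZNF143 passed without GGCCAC (adjusted p = 0.0436) and ZNF746 in AT-rich libraries alone, at -0.23 (adjusted p = 0.0317).

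Among ZNF genes that act on RNA, ribosomes or other proteins, ZNF451, a SUMO ligase, rose by 0.26 (SE 0.054, adjusted p = 2.10e-04) at 142 CPM, with 17 KO libraries above every control. ZNF326, a part of a complex that couples splicing to elongation, rose by 0.17 (SE 0.041, adjusted p = 0.0014), from 6.53 to 6.75 log2 CPM in control to 6.59 to 7.01 in KO libraries. ZNF622, a late factor in making the large ribosomal subunit, rose by 0.13 (SE 0.048, adjusted p = 0.038), but did not pass with barcode class as a covariate (adjusted p = 0.0916) or in AT-rich libraries alone (adjusted p = 0.236). ZNF330, a nucleolar protein, fell by 0.27 (SE 0.073, adjusted p = 0.00353). Its control libraries were tight, at 6.72 to 6.94, while KO libraries spread from 5.86 upward to that of GGCCAC, the 1 KO library above every control. The lowest 6 were again KO libraries 4, 5, 10, 22, 24 and 25, at 5.86 to 6.31, and the other 20 began at 6.43. Without the 6 the fall was 0.17 (SE 0.045, adjusted p = 0.00367). ZNF598, a ubiquitin ligase that senses collided ribosomes, and ZNF638, which binds unintegrated retroviral DNA, had log2 fold changes of 0.00 (SE 0.074) and 0.02 (SE 0.049). The 3′ ends of ZNF451 and ZNF598 overlap antisense genes.

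The 5 ZNF genes with the highest mean level were ZNF207, a spindle protein that stabilises BUB3, at 333 CPM, ZNF146, made of 10 fingers and little else, at 152 CPM, ZNF24 at 147 CPM, ZNF451 at 142 CPM and ZNF131, a BTB zinc finger protein, at 123 CPM. A UMI counts 1 molecule whatever its length, so transcript length does not enter these levels. Other differences in capture between genes were not tested. Except for ZNF451 they did not pass with all libraries. Log2 fold changes were 0.05 (SE 0.033) for ZNF207, -0.15 (SE 0.065) for ZNF146, 0.08 (SE 0.056) for ZNF24 and 0.08 (SE 0.037) for ZNF131. ZNF146 did pass without GGCCAC (adjusted p = 0.0429) and in AT-rich libraries alone, at -0.28 (adjusted p = 0.0139). ZNF207 varied little in either group, with an SD of 0.08 in both. At the other end, ZNF567 and ZNF302 lay just inside the limit, at 10.1 CPM or less, and ZNF114 and ZNF646 just outside it at 9.91 and 9.8 CPM. Their log2 fold changes lay between -0.15 and 0.13.

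All expressed ZNF genes together took 0.569% to 0.654% of UMIs in KO and 0.567% to 0.618% in control libraries. That share differed between barcode classes of KO libraries. KO libraries with an AT-rich barcode had a median of 0.591% and those with a GC-rich barcode 0.627%. Of the 11 controls 8 were AT-rich, with a median of 0.587%, 2 were of neither class and 1 was GC-rich. Of the KO libraries 12 were AT-rich, 2 of neither class and 12 GC-rich. Barcode class was thus unbalanced between KO and control libraries. The fit with barcode class as a covariate had only 1 GC-rich control. The 6 KO libraries low in ZNF254, all AT-rich but KO library 10, ran from 0.575% to 0.601%. The other AT-rich KO libraries ran from 0.569% to 0.628%. Barcode class and this set of 6 thus overlap, and their parts were not tested. In AT-rich libraries alone, 13 ZNF genes rose and 17 fell, where 25.4% of 11092 tested genes changed (1475 rose and 1346 fell), the median over the 172 was -0.033, and ZNF544, ZNF525, ZNF518B and ZNF239 passed -0.5 besides ZNF706 and ZNF83. The 4 genes that rose past both thresholds did so there too, joined by ZNF519.

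Spread among KO libraries was large for some genes that did not pass. The KO SD exceeded the control SD in 72%, 59.4% and 57.1% of the ZNF genes at 10 to 20, 20 to 50 and 50 to 400 CPM, and in 71.7%, 74.8% and 74% of the other tested genes. Median depth was lower in KO than in control libraries, and its part in these SDs was not tested. ZNF254, a KRAB gene of chromosome 19 with 13 fingers, had an SD of 0.60 in KO and 0.16 in control libraries. Control libraries lay between 4.21 and 4.74 log2 CPM. Of the KO libraries 14 lay above and 6 below that range, and the 6 (KO libraries 4, 5, 10, 22, 24 and 25) had 3.38 to 3.71, a gap from the next KO library at 4.32. The log2 fold change of 0.25 (SE 0.159, adjusted p = 0.229) is thus an average over both kinds. ZNF558, another KRAB gene, also had 6 KO libraries below every control, 5 of them among the 6 named, with an SD of 0.56 in KO and 0.25 in control libraries. The same 6 libraries ranged from 5.40 to 5.99 for ZNF76, above all controls (5.14 to 5.34), but the other 20 KO libraries ranged from 4.84 to 5.97, and 15 of the 26 lay above every control. For ZNF146 they lay at 6.73 to 6.97, with the other 20 at 7.14 to 7.49, and for ZNF655 at 6.88 to 7.02, with the others at 6.32 to 6.76. Of these 6, KO library 10 alone has a GC-rich barcode. ZNF32 and ZNF696 had SDs of 0.49 and 0.48 in KO and 0.32 and 0.39 in control libraries. The 5 lowest KO libraries of ZNF32 included 1 of the 6. In control libraries the largest SDs were those of ZNF30 (0.67), ZNF711 (0.63) and ZNF275 (0.56). For ZNF30 the value rests on GTTTAT, with 2 UMIs.

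**Figure D5:**
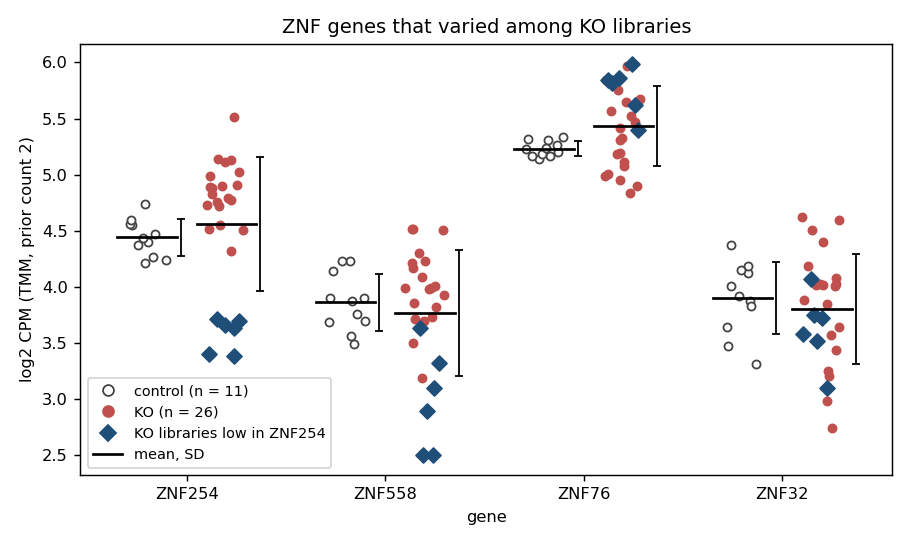
Level in log2 CPM (vertical axis) of ZNF254, ZNF558, ZNF76 and ZNF32 in 11 control libraries (open circles) and 26 KO libraries (filled), with group means and SDs as black lines and the 6 KO libraries low in ZNF254 as diamonds. The 6 lie at 3.38 to 3.71 for ZNF254, below all controls, among the lower values for ZNF558, and above the controls for ZNF76, where other KO libraries reach as high.

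ZBTB7A is known to bind a short element in the promoter of the fetal globin genes, so its letters, CCCTTCCC, were looked for on both strands in 250 bases before and 50 after each start. They stood in 7.19% of the 153 ZNF promoters in the table (11 genes) and in 6.48% of all promoters. None of ZNF853, ZNF711, ZNF117 and ZNF83 held them, and ZNF385A and ZNF706 were not in the table. Of the changed genes, ZNF326 and ZNF451, which rose, and ZNF330, which fell, held them. The matches are shown in capitals within 30 bases, to set genes of both directions side by side.
ZNF326, chr1:89994878-89994907, plus strand: gccgcagccggCCCTTCCCgtacactcggc
ZNF451, chr6:57090168-57090197, plus strand: cggtgcagggcGGGAAGGGgattcgtggcg
ZNF330, chr4:141220821-141220850, plus strand: aggagtgggcgGGGAAGGGgcggagcgaac
A second string, GACCACC, stood in 2.61% of the ZNF promoters and 2.99% of all. The matches are letters in these windows and say nothing of binding. In bulk RNA of these libraries, fewer cells with a transcript and less of it per cell cannot be told apart.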

How the data were processed

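Reads were aligned by the authors to hg38 using STAR 2.6.0a (version per the submitters' processing notes), who counted UMIs with zUMIs against the Ensembl annotation and deposited raw UMI counts per gene without normalization. The zUMIs version is not given in the sources used here. Libraries were prepared from bulk lysates and counted at the 3′ end. Each of the 37 columns was matched to a sample by the barcode in its title.

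The 172 ZNF genes, the domain classes and the gene lists were chosen with earlier results of these data known. Symbols came from GENCODE 44, which paired 31323 of 32055 identifiers and is newer than the annotation used for counting. Proteins of the main GENCODE isoform were translated, fingers were counted by the pattern of 2 cysteines and 2 histidines, and KRAB and SCAN domains were found with profiles (pyhmmer 0.12.3, E-value under 1e-05). The profiles were built from these proteins. The last 300 bases of each main transcript were compared with all transcripts (BLAST+ 2.17.0, 95% identity over 80 bases).

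Counts were fitted over all genes passing the default filter in R 4.3.3 with edgeR 4.0.16 (TMM, robust quasi-likelihood, group as the only term), with Benjamini-Hochberg adjustment over 10661 genes. All adjusted p are from this test unless another is named. The study used limma, run here as an alternative because the values are counts. Genes passed at an adjusted p under 0.05, and past both thresholds with an absolute log2 fold change above 0.5. Levels are TMM log2 CPM with a prior count of 2. AT-rich barcodes have at most 2 and GC-rich at least 4 G or C of 6. The fit was tested on simulated counts.

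Named genes are the 10 largest rises and falls among those that passed, the 5 highest in level, the 5 and 3 most variable in KO and control, the genes beside the level limit, and listed genes of known role or KRAB partners. Others that passed are also given. The fit without 6 KO libraries was added after the data were seen. Beside the 7 markers of other blood cells given, 1 further listed marker is not reported here.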

Additional observations from a re-analysis of the deposited data

How the results depend on the processing

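The counts of ZNF genes at an adjusted p under 0.05 stayed within 1.5 times (16 higher, 15 lower) with DESeq2, limma-voom, no filter on low counts, RLE size factors, scaling by library size alone, barcode class as covariate, AT-rich barcodes alone, and equal weighting or 20 CPM in the member rule. Thinning all libraries to 563235 UMIs, which left 149 of the 172 genes and 5.71% of tested genes called, gave 1 higher (ZNF711) and 3 lower (ZNF706, ZNF74, ZNF518B), each past both thresholds, and a KRAB median of -0.0703. ZNF853 was not tested there. The count past both thresholds and lower in KO was 1 with library size alone, 4 without the filter, 5 with barcode class and 6 with AT-rich barcodes alone. At log2 fold changes above 0.25 the counts were 14 higher and 11 lower, and above 1 they were 2 and 0. The shares of all tested genes at these fold thresholds are not given here. Nor are the shares past both thresholds in the alternatives or with single libraries left out. Whether such counts are many therefore cannot be said. Of the 31 genes that passed, 5 (ZNF853, ZNF711, ZNF706, ZNF74 and ZNF518B) passed in every alternative that tested them and with each library left out. Leaving out each library gave 13 to 19 higher and 13 to 20 lower at an adjusted p under 0.05, 4 higher past both thresholds and 1 to 4 lower. It was 1 (ZNF706) without control 1 or 2 or KO library 2, 5 or 22, 4 without control 3, and 3 without 13 other libraries. Medians under these 37 omissions were -0.0155 to 0.0124 for all 172 genes, -0.0443 to -0.0129 with KRAB and 0.0276 to 0.0505 without.

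A single library ended the call of 7 genes. Adjusted p was 0.0522 to 0.0888 for ZNF202 without control 1, 2, 5, 8, 10 or 11 or KO library 2, 16 or 21, and 0.0525 to 0.0932 for ZNF320 without control 2, 7, 9, 10 or 11 or KO library 3. It was 0.054 to 0.0556 for ZNF644 without control 3 or 5, and 0.0538 to 0.0852 for ZNF622 without control 2, 8 or 9. For ZNF519 it was 0.0508 to 0.0604 without control 1 or 11, and for ZNF521 0.0502 to 0.0745 without control 1, 2, 5, 7, 10 or 11. For ZNF850 it was 0.0509 to 0.109 without control 2, 3, 5, 8, 9 or 11 or KO library 4, 6, 8, 10, 11, 12, 16, 20, 23, 24 or 25.

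Besides thinning, which ended the call of 24 genes, calls ended without the filter for ZNF521, ZNF736, ZNF519, ZNF622, ZNF202, ZNF320 and ZNF850 (adjusted p 0.0573 to 0.208), with AT-rich barcodes alone for ZNF521, ZNF736, ZNF771, ZNF622, ZNF644 and ZNF850 (0.0625 to 0.236), with barcode class for ZNF521 and ZNF622 (0.0758 and 0.0916), and with library size for ZNF644, ZNF202 and ZNF320 (0.0541 to 0.0789). Leaving out the 6 KO libraries low in ZNF254, chosen after the data were seen, gave 17 higher and 14 lower, and 0 lower past both thresholds. It ended the calls of ZNF519, ZNF622, ZNF320 and ZNF850 and turned ZNF32 (0.0504), ZNF567 (-0.0138), ZNF281 (0.0105) and ZNF827 (0.0678). Calls were also gained, such as those of ZNF146 and ZNF746 with AT-rich barcodes alone (adjusted p = 0.0139 and 0.0317).

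Signs turned after thinning for ZNF521 (-0.0445), ZNF480 (0.1664), ZNF207 (-0.0673), ZNF30 (0.0543), ZNF143 (0.0642), ZNF217 (0.2627) and ZNF598 (-0.0122). Near 0, they also turned for ZNF558 with limma-voom (-0.0223), barcode class (-0.0707) and AT-rich barcodes (-0.1561), for ZNF32 with library size (0.0209) and barcode class (0.0026), for ZNF567 with limma-voom (-0.0163) and no filter (-0.0037), for ZNF281 with library size (0.0109), for ZNF598 with no filter (-0.0067), barcode class (-0.0443) and AT-rich barcodes (-0.0033), and for ZNF827 with limma-voom (0.0027), DESeq2 (0.0041) and library size (0.0214). Leaving out 1 library turned ZNF558 (-0.0236 to 0.0658), ZNF32 (-0.0547 to 0.0302), ZNF696 (-0.1347 to 0.0116), ZNF567 (-0.0238 to 0.0444), ZNF598 (-0.0312 to 0.0461), ZNF638 (-0.0003 to 0.0487) and ZNF827 (-0.0406 to 0.0266). The cause was not tested. No paired analysis was possible because the labels give no replicate numbers. The shallowest library held 3 UMIs of ZNF736, 4 of ZNF519 and 2 of ZNF30.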

Other observations

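Of the 278 ZNF genes under 10 CPM, 88 passed the filter on low counts and were tested. At an adjusted p under 0.05, 7 of them rose and 5 fell, against 33.8% of all tested genes in both directions, and 4 and 1 did so with an absolute log2 fold change above 0.5. Their median log2 fold change was -0.107 at a median standard error of 0.146, against 0.092 for the expressed ZNF genes.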
